A study of Homo sapiens with 5 samples.

Results

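Enrichment peaks of Nrf2 and HIF1α were examined at 10 genes of heme and iron handling: HMOX1, BLVRA, BLVRB, FTL, FTH1, FECH, ABCB6, SLC48A1, SLC40A1 and TFRC. These genes were listed by name, out of 20163 protein-coding genes of the annotation, and a peak was assigned to a gene when it overlapped the gene or the 50 kb on either side of it on hg19. By this rule 73 of the 29781 peaks in 4 ChIP-seq libraries fell at the listed genes. The 10 genes, and 41 others compared with them below, were chosen with earlier results of these data known. Shares of all genes are thus set beside their counts as description, not as independent support. Counts within 1 kb of a start site, counts among the 100 widest peaks and some counts of sequence elements were added after values were seen. The libraries came from BEAS-2B, an immortalized line of human bronchial epithelial cells, which had been kept overnight without serum in every group. Cells then received 1 μM arsenic (iAs) or no arsenic (control) for 6 h, and chromatin from each condition was immunoprecipitated with an antibody against Nrf2 or against HIF1α. Each of the 4 groups was 1 library, so no difference between conditions has a replicate check, no test was run, and every comparison holds for these libraries alone. The antibody sources named in the sample labels and in the published methods differ, so their origin is not stated here. The lists hold positions only, with no peak heights and no read totals, so the number of tags behind each list is not known here and peak width is the only measure of size. The published methods state that tags were down-sampled to the sample with the fewest in its group, without saying which libraries formed a group.

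Heme is the iron-containing ring of hemoglobin, cytochromes and many enzymes. Free heme and free ferrous iron promote oxidative damage, so cells open the ring with heme oxygenase, store the released iron in ferritin, or export it. Nrf2 is a stress-activated factor that pairs with small MAF proteins and binds the antioxidant response element, for which the 9-base string TGACTCAGC (or its reverse complement GCTGAGTCA) was searched. BACH1, a heme-responsive repressor, binds the same kind of element. HIF1α binds the hypoxia response element, whose core is ACGTG or GCGTG, and iron itself bears on HIF1α because the prolyl hydroxylases that mark it for destruction need ferrous iron.

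The sequences that recur below are the Nrf2 elements under the peaks. HMOX1 is shown first because its upstream peak held an array of elements rather than 1 copy. The stretch chr22:35768002-35768117 lies about 9 kb upstream of the HMOX1 start site, and capitals mark 4 matches to TGACNNNGC, the looser form of the element in which N is any base, spaced 29 bp apart and reading here as the reverse complement.
HMOX1 distal array (+ strand): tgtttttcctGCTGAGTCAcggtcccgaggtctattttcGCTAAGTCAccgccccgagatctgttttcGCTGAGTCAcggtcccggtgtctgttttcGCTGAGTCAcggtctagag
The proximal HMOX1 peak, centred at -3.93 kb in control cells (negative distances lie upstream of the start site), held 2 matches 64 bp apart at chr22:35773075-35773167.
HMOX1 proximal pair (+ strand): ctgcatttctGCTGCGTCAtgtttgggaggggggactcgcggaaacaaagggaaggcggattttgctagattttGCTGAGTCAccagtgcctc
The remaining genes are shown with 10 flanking bases on each side, on the strand on which the capitals read TGACTCAGC, to let the flanks be compared.
FTL, chr19:49467189-49467217 (+ strand), at -1.36 kb: gagctcagcaTGACTCAGCagtcgctgcc
FTH1, chr11:61739505-61739533 (+ strand), at -4.41 kb: tgtcccaccgTGACTCAGCactctgctag
BLVRB, chr19:40970461-40970489 (+ strand), intron 1: gatttccaggTGACTCAGCgcctctcaac
FECH, chr18:55254203-55254231 (+ strand), at -0.28 kb: tcctcagccaTGACTCAGCaaataacttt
ABCB6, chr2:220082661-220082689 (+ strand), at 1.00 kb: aaaaccacagTGACTCAGCaaagacacac
SLC48A1, chr12:48170637-48170665 (- strand), intron 1: aattcctctgTGACTCAGCagtttctggg
SLC40A1, chr2:190399800-190399828 (- strand), at 45.70 kb: ctcttaatagTGACTCAGCtcttttctgt

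Nrf2 peaks were found at 7 of the 10 genes in control cells and at 9 of 10 after iAs. Over all protein-coding genes, 20.0% had an Nrf2 peak by the same rule in control cells and 35.0% after iAs. HIF1α peaks were found at 6 of 10 genes in control cells, where 45.5% of all genes had one, and at 10 of 10 after iAs, where 68.6% had one. BLVRA was the only listed gene without an Nrf2 peak in either condition. TFRC and SLC40A1 had an Nrf2 peak only in the iAs list, and FTL, FTH1, BLVRB and SLC40A1 had a HIF1α peak only in the iAs list. With each list cut to its 3204 widest peaks, Nrf2 peaks were found at 7 of 10 genes in either condition, against 20.0% of all genes in control cells and 20.4% after iAs. HIF1α peaks were then found at 3 of 10 in control cells and 4 of 10 after iAs, near the 31.5% and 33.9% of all genes.

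The iAs lists were longer than the control lists for all genes, not for these alone. The Nrf2 list held 3204 peaks in control cells and 7743 after iAs, of which 10 and 26 lay at the listed genes. The HIF1α list held 6008 and 12826 peaks, of which 8 and 29 lay at the listed genes. An Nrf2 peak present after iAs with no overlapping control peak was found at 7 of 10 genes, against 25.4% of all genes, and such a HIF1α peak at 9 of 10, against 59.6%. Counted by peak, 17 of 26 Nrf2 iAs peaks (65.4%) overlapped no control peak, close to the 62.0% over the whole list (95% Wilson interval, 61.0 to 63.1%, counting error only). For HIF1α the corresponding share was 23 of 29 (79.3%), against 75.2% of the list (74.5 to 76.0%). When control peaks up to 1 kb away also counted as shared, 10 of 26 Nrf2 iAs peaks had no control peak, against 56.6% of the list. With the 3204 widest peaks of each list it was 5 of 14 for Nrf2, against 30.0% of the shortened list, and 6 of 8 for HIF1α, against 68.6%.

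**Figure D1:**
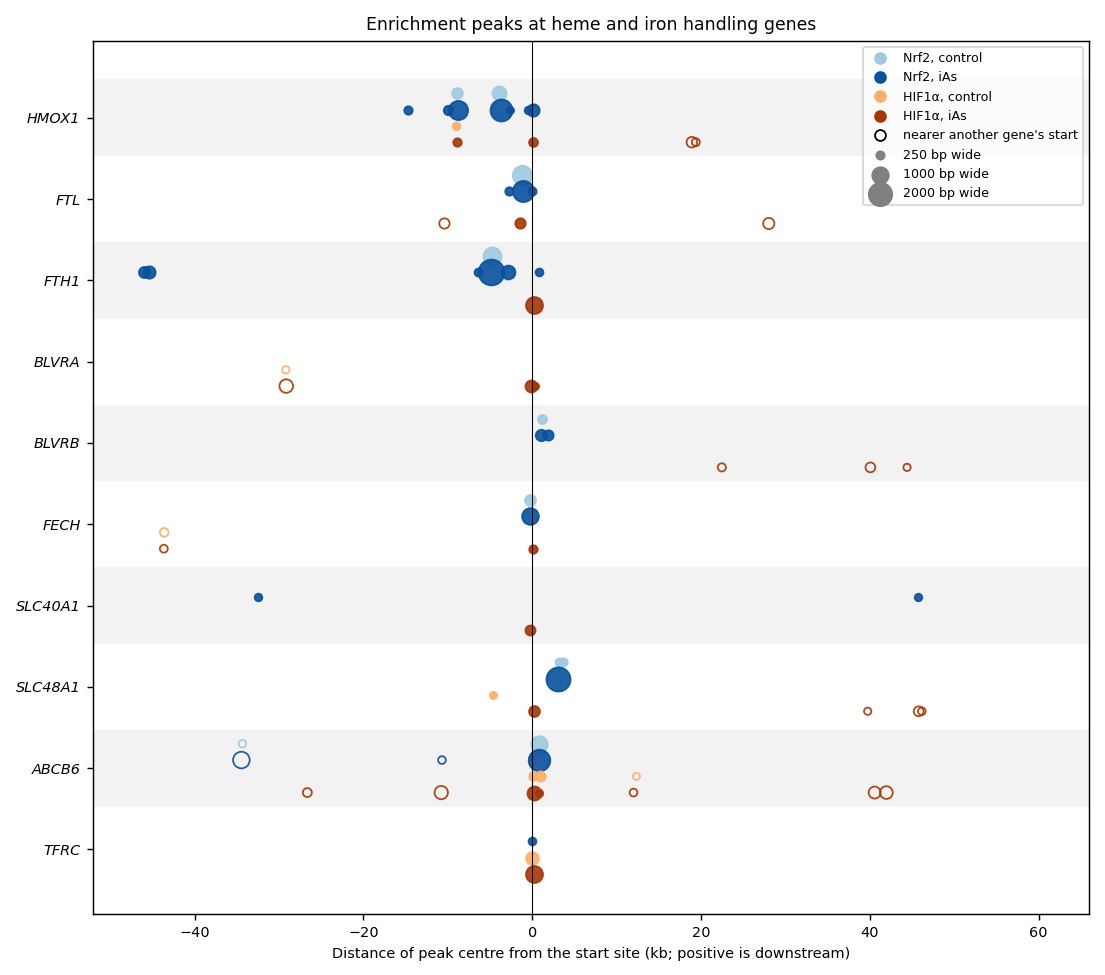
Position of each of the 73 peaks at the 10 genes. The x axis gives the distance of the peak centre from the start site of the canonical transcript in kb, each gene has 1 row for each library, the area of a circle is proportional to peak width in bp, and open circles are peaks that lie nearer to the start site of another protein-coding gene. Nrf2 peaks sit mostly near the listed gene, whereas many HIF1α iAs peaks are open circles.

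The peaks of the 2 factors differed in how far they could be tied to the listed genes. The listed gene had the nearest protein-coding start site for 9 of 10 Nrf2 control peaks and 24 of 26 Nrf2 iAs peaks. The same held for 5 of 8 HIF1α control peaks and 12 of 29 HIF1α iAs peaks. These counts have no whole-list share to compare with. The iAs lists as a whole also differed in position. Of all HIF1α iAs peaks, 72.5% were centred within 1 kb of some protein-coding start site, against 11.9% of all Nrf2 iAs peaks. At the listed genes 23 of 29 and 9 of 26 were. The difference between the factors was thus not limited to these genes. Of the 17 HIF1α iAs peaks nearer to another gene, 5 lay in the ABCB6 window, 3 each in those of BLVRB and SLC48A1, 2 each in those of HMOX1 and FTL, and 1 each in those of BLVRA and FECH. The windows differ in gene density, with 13 other protein-coding start sites at ABCB6 and none at SLC40A1 and TFRC. The peaks closest to the 50 kb limit were the FTH1 pair of Nrf2 iAs peaks, whose edges lay 45.1 and 45.8 kb from the gene. Just outside it, at 57.9 kb, lay an Nrf2 iAs peak of 289 bp upstream of FTH1 and a HIF1α iAs peak of 199 bp beyond TFRC.

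HMOX1 encodes heme oxygenase 1, the inducible enzyme that opens the heme ring and releases iron, carbon monoxide and biliverdin. In control cells it had 2 Nrf2 peaks, both upstream. The distal one (chr22:35767927-35768359) was 433 bp wide and covered all 4 elements of the array shown above, and the proximal one (chr22:35772792-35773519) was 728 bp wide. After iAs the distal peak was 1353 bp wide and the proximal peak 1773 bp, which are ratios of iAs to control width of 3.12 and 2.44.

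The iAs list held 5 further Nrf2 peaks at HMOX1. They were centred at -14.67, -10.00, -2.65, -0.49 and 0.10 kb from the start site, with widths of 260, 331, 188, 217 and 560 bp. Those at -10.00 and -2.65 kb lay within 1 kb of a control peak, and whether they are separate from it was not tested. The widest of the 5 covered the start site itself, and none of the 5 held TGACTCAGC. In all, Nrf2 peaks covered 1161 bp at HMOX1 in control cells and 4682 bp after iAs, the largest covered length among the 10 genes in the iAs library.

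HIF1α peaks at HMOX1 also fell on the distal array. The HIF1α control peak (chr22:35767988-35768210) was 223 bp wide and the HIF1α iAs peak (chr22:35768019-35768278) was 260 bp wide, and both lay inside the Nrf2 iAs peak. The array was thus covered in all 4 libraries, though the HIF1α iAs peak began inside it and covered 2 whole copies of TGACTCAGC. A second HIF1α iAs peak of 292 bp covered the start site, where it overlapped the Nrf2 iAs peak. Under it lay the core ACGTG in both orientations, at chr22:35777041-35777046.
HMOX1 start site, chr22:35777032-35777056 (+ strand): cgcctggcccACGTGacccgccgag
The other 2 HIF1α iAs peaks in the HMOX1 window, 413 and 236 bp wide, lay over the start site of the neighbouring gene MCM5 and directly downstream of it.

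BLVRA and BLVRB encode the 2 biliverdin reductases, which convert biliverdin to bilirubin. The 2 genes differed in which factor lay near the start site. BLVRB had an Nrf2 peak of 305 bp in intron 1 in control cells, 1.17 kb from the start site, and after iAs the overlapping peak was 480 bp wide. After iAs BLVRB also had a second intron 1 peak of 391 bp, 1.86 kb from the start site and within 1 kb of the control peak. Its HIF1α iAs peaks, of 247, 353 and 197 bp, all lay nearer to the start sites of SERTAD3 and SERTAD1 than to that of BLVRB. BLVRA had no Nrf2 peak in its window, the nearest edge being 73.3 kb from the gene in control cells and 73.2 kb after iAs. It had HIF1α iAs peaks of 535 bp at -0.14 kb and 188 bp at 0.37 kb, and no control peak at the start site. The HIF1α peak found in both conditions in the BLVRA window (201 bp in control cells, 672 bp after iAs) lay at the start site of COA1.

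FTL and FTH1 encode the light and heavy subunits of ferritin, the shell in which cells store iron. Their upstream Nrf2 peaks were among the widest of the lists already in control cells. The FTL control peak (chr19:49466696-49468088) was 1393 bp wide, ranking 10 of 3204 by width, and the FTH1 control peak (chr11:61739271-61740451) was 1181 bp wide, ranking 30. After iAs the FTL peak was 1645 bp wide, 1.18 times the control width and the smallest Nrf2 ratio among the listed genes. The FTH1 peak was 2447 bp wide after iAs, ranking 17 of 7743 and the widest of all 73 peaks.

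Further Nrf2 peaks flanked both ferritin peaks in the iAs library. At FTL they were peaks of 266 bp at -2.70 kb and 255 bp at -0.08 kb. At FTH1 they were peaks of 232 bp at -6.38 kb, 706 bp at -2.84 kb and 231 bp at 0.75 kb, together with the distant pair of 555 and 452 bp at -45.39 and -46.00 kb. Both FTL peaks, and the FTH1 peaks at -6.38 and -2.84 kb, lay within 1 kb of the control peak. Whether they are separate from it was not tested. HIF1α had no control peak in either window. After iAs a HIF1α peak of 403 bp lay at -1.39 kb of FTL, over the element shown above, and one of 1055 bp covered the FTH1 start site and exon 1. Both ferritin genes have many processed copies elsewhere in the genome, so reads from their exons may map to several places. The wide upstream peaks lie outside the annotated gene, and the part of such reads in the exon 1 peak of FTH1 was not tested.

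**Figure D2:**
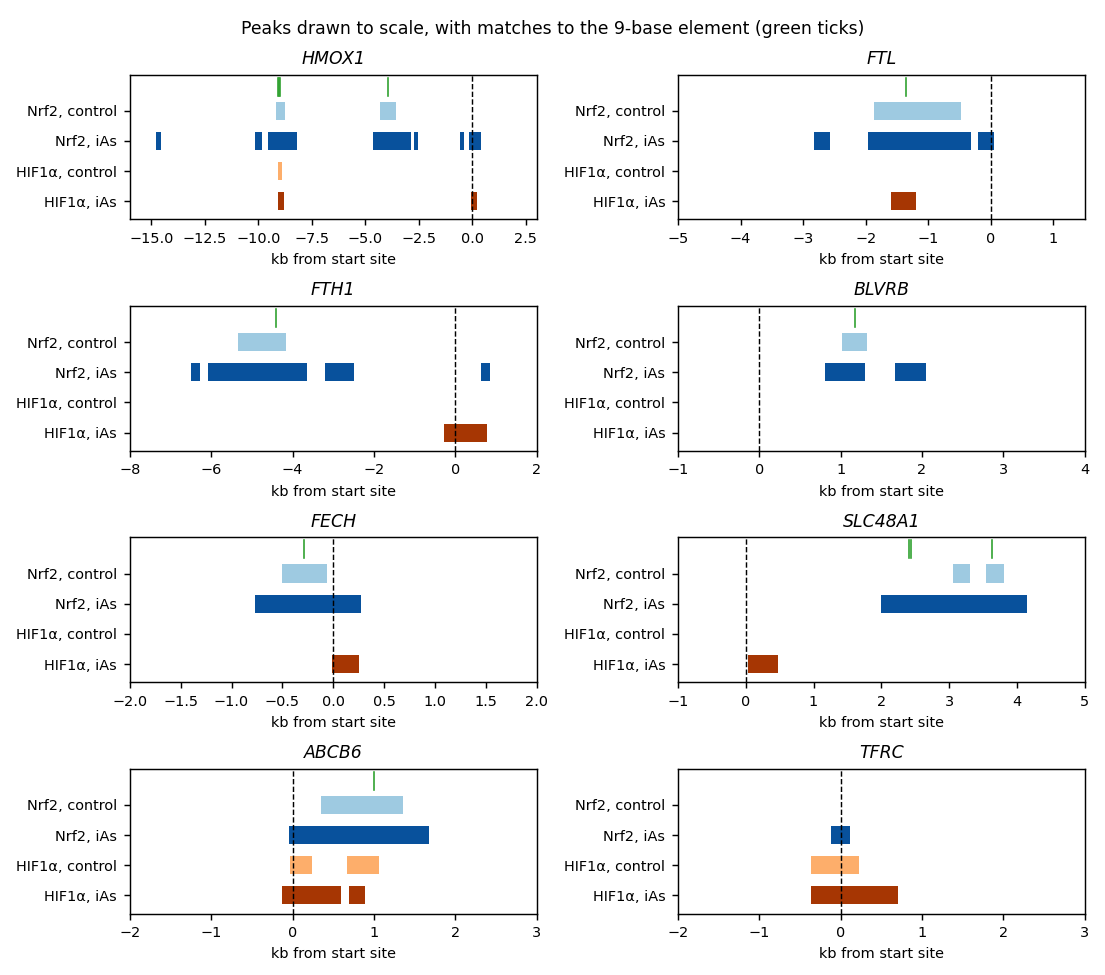
Peaks near the start sites of 8 of the genes, drawn to scale in kb from the start site (dashed line; transcription runs to the right), with 1 row for each library. Green ticks mark matches to TGACTCAGC or its reverse complement under a peak. The control Nrf2 peaks at HMOX1, FTL, FTH1, BLVRB and FECH, and the ABCB6 peak near its start, each cover a tick and are contained in, or overlapped by, a wider iAs peak.

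FECH encodes ferrochelatase, which inserts iron into protoporphyrin in the last step of heme synthesis. Its Nrf2 peak lay directly upstream of the start site in both conditions, with a width of 446 bp in control cells (chr18:55253991-55254436) and 1034 bp after iAs, when it extended over the start site. The control peak held 3 matches to TGACNNNGC, of which 1 was the full TGACTCAGC shown above. A HIF1α peak of 264 bp in exon 1 was present in the iAs list alone and lay inside the Nrf2 iAs peak. The other HIF1α peaks in the window, 273 bp in control cells and 230 bp after iAs, lay more than 43 kb upstream and nearer to NARS1.

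ABCB6 encodes a membrane transporter of porphyrins. Its Nrf2 peak near the start site was 1003 bp wide in control cells (chr2:220082328-220083330, ranking 60) and 1714 bp after iAs (ranking 79). HIF1α occupied the same stretch in both conditions, with control peaks of 274 bp at 0.11 kb and 391 bp at 0.87 kb and iAs peaks of 725 bp at 0.24 kb and 200 bp at 0.79 kb. The narrower of the iAs peaks was 0.512 times the width of the control peak it overlapped, while the wider was 2.65 times. The remaining Nrf2 peaks in the window lay at the start sites of TUBA4B (208 bp in control cells and 1016 bp after iAs) and ATG9A (220 bp, iAs alone), and 5 of the 7 HIF1α iAs peaks lay nearer to other genes.

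SLC48A1 encodes HRG1, a transporter that brings heme out of endosomes and lysosomes. In control cells its intron 1 held 2 narrow Nrf2 peaks, of 243 bp (chr12:48170080-48170322) and 269 bp (chr12:48170566-48170834). A single Nrf2 peak of 2142 bp (chr12:48169020-48171161) covered both after iAs, ranking 28 of 7743, and the ratios of its width to those of the control peaks were 8.81 and 7.96. These were the largest ratios among the listed genes, each taken against 1 of the 2 control peaks. Together the 2 control peaks covered 512 bp. The wide peak also covered 2 further copies of TGACTCAGC, at 2.41 and 2.44 kb from the start site, that no control peak had covered.
SLC48A1 at 2.41 kb, chr12:48169420-48169448 (+ strand): accctacttcTGACTCAGCgttttatagc
SLC48A1 at 2.44 kb, chr12:48169448-48169476 (- strand): tacccttgggTGACTCAGCagattctgag
A HIF1α iAs peak of 438 bp lay 0.26 kb from the start site and did not reach the Nrf2 peak. The HIF1α control peak of 190 bp, at -4.61 kb, had no iAs counterpart, and the other 3 HIF1α iAs peaks were nearer to HDAC7.

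SLC40A1 encodes ferroportin, the cellular iron exporter. It had no peak in either control list. After iAs 2 narrow Nrf2 peaks lay far from the start site, of 216 bp at -32.53 kb and 209 bp at 45.71 kb, and the second held the element shown above. Its HIF1α iAs peak of 373 bp lay at -0.21 kb.

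TFRC encodes the transferrin receptor, through which cells import iron. It was the listed gene with the widest HIF1α peak in control cells, 596 bp at -0.07 kb (chr3:195808731-195809326, ranking 175 of 6008), and after iAs that peak was 1060 bp wide (chr3:195808262-195809321, ranking 345 of 12826). An Nrf2 peak of 228 bp over the start site appeared in the iAs list alone, inside the HIF1α peak, and held no TGACTCAGC. All 3 TFRC peaks covered the string TACGTGCC, a hypoxia response element core with its flanks, at the site shown here.
TFRC, chr3:195809035-195809059 (- strand), at -0.09 kb: tcgcgagcgtACGTGcctcaggaag
TACGTGCC was found in 2 of 8 HIF1α control peaks and 2 of 29 HIF1α iAs peaks at the listed genes, at ABCB6 and TFRC in both conditions, against 0.766% and 0.616% of all peaks in those lists. It was also found in 3 of 26 Nrf2 iAs peaks, at BLVRB, ABCB6 and TFRC, against 0.491% of that list.

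Among all Nrf2 control peaks at the listed genes, 10 of 10 overlapped an iAs peak, and in each case the iAs peak was the wider. Over the whole list 5.37% of control peaks had no iAs counterpart (4.64 to 6.20%), and the iAs peak was wider in 92.2% of overlapping pairs. The median ratio of iAs to control width was 2.38 at the listed genes (range 1.18 to 8.81) and 1.68 over the list. The 2 SLC48A1 control peaks were paired with the same iAs peak, so the 10 pairs involve 9 iAs peaks. Of the 8 HIF1α control peaks, 6 overlapped an iAs peak, and that peak was wider in 4 of the 6. The median HIF1α ratio was 1.48 at the listed genes (0.512 to 3.34), and 1.49 over the list. The 2 HIF1α control peaks without an iAs counterpart were those at -4.61 kb of SLC48A1 and 12.34 kb of ABCB6, against 46.3% of the list without one (45.0 to 47.6%).

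**Figure D3:**
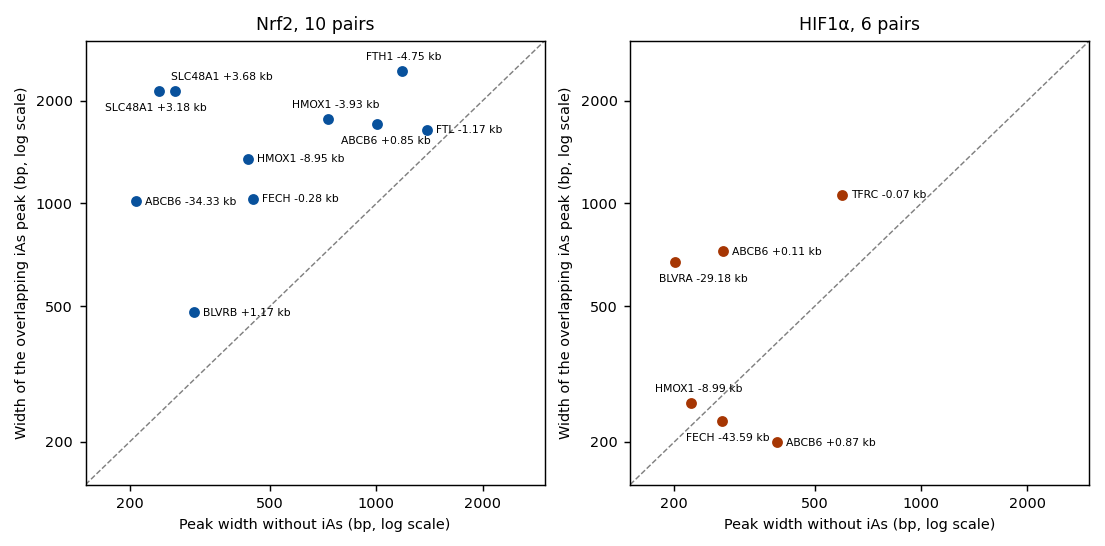
Width in bp of each control peak at the listed genes (x axis, log scale) against the width of the iAs peak of the same factor that overlaps it (y axis, log scale), labelled with the gene and the control peak's distance from the start site. All 10 Nrf2 points lie above the dashed line of equal width, and 4 of 6 HIF1α points do. The 2 SLC48A1 Nrf2 points share the same iAs peak.

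Wide Nrf2 peaks were frequent at these genes. One of the 100 widest Nrf2 control peaks lay at 3 of 10 genes (FTL, FTH1 and ABCB6), against 1.00% of all genes, and one of the 100 widest Nrf2 iAs peaks lay at 5 of 10 (HMOX1, FTL, FTH1, SLC48A1 and ABCB6), against 1.04% of all genes. The 21 Nrf2 iAs peaks at the listed genes outside the 100 widest ranged from 188 to 1353 bp, the widest being the distal HMOX1 peak. Their median was 266 bp, against 333 bp over the list with its 100 widest kept, and 9 of the 21 were above the median of the list. All 26 Nrf2 iAs peaks at the listed genes had a median of 422 bp. The 7 such control peaks ranged from 208 to 728 bp, with a median of 305 bp against 309 bp over the whole list. All 10 Nrf2 control peaks had a median of 440 bp. None of the HIF1α peaks at these genes was among the 100 widest of its list, and the median HIF1α iAs width was 359 bp, against 340 bp.

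By position, a peak centred within 1 kb of the listed gene's own start site was found for Nrf2 at 2 of 10 genes in control cells (FECH and ABCB6), against 2.23% of all genes. After iAs it was found at 6 of 10 (HMOX1, FTL, FTH1, FECH, ABCB6 and TFRC), against 4.92%. For HIF1α the counts were 2 of 10 in control cells (ABCB6 and TFRC), against 16.5%, and 8 of 10 after iAs, against 42.1%, FTL and BLVRB being the exceptions. The HIF1α share in control cells was thus near that of all genes.

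**Figure D4:**
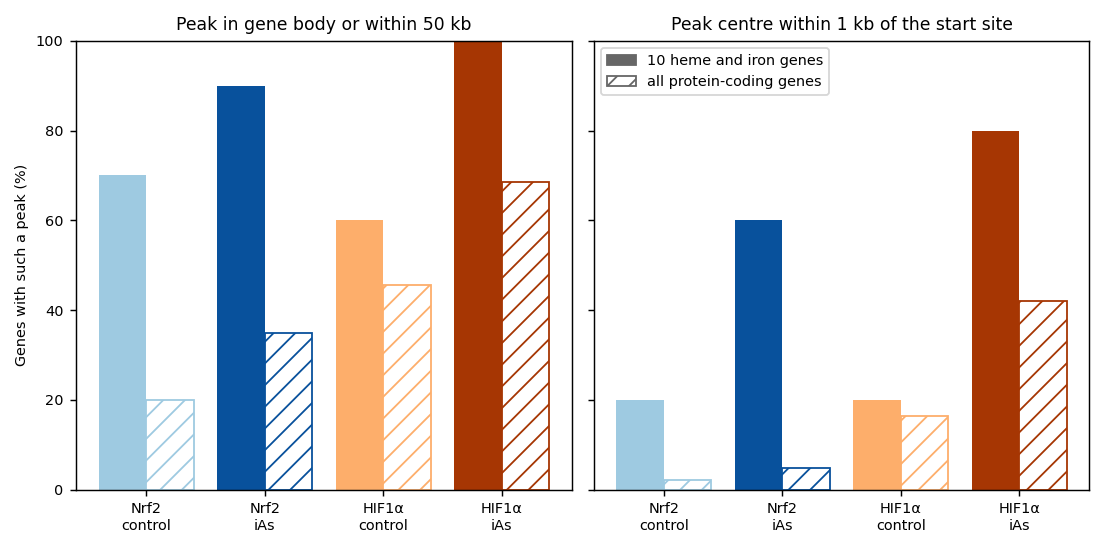
Share of genes in percent (y axis) with a peak in the gene or the 50 kb around it (left) and with a peak centred within 1 kb of the start site (right), for the 10 heme and iron genes (filled) and all 20163 protein-coding genes (hatched) in each library. The filled bar exceeds the hatched bar in each library, by least for HIF1α in control cells.

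At these genes the element lay mainly under the Nrf2 peaks that were present without iAs. TGACTCAGC was found in 9 of 10 Nrf2 control peaks at the listed genes, against 29.0% of the list, the exception being the narrower SLC48A1 peak. Of the 26 iAs peaks, 9 overlapped a control peak and all 9 held TGACTCAGC, against 31.8% of such peaks over the list (30.1 to 33.5%). Only 1 of the 17 iAs peaks without a control peak held it, the SLC40A1 peak at 45.71 kb, against 15.5% over the list (14.5 to 16.5%). Those 9 peaks were also wider than the 17, with medians of 1640 and 255 bp, and a wider peak covers more sequence. In a fixed window of 201 bp about the peak centre the counts were 2 of 9 and 1 of 17, against 19.5% and 13.3% over the list. Over all peaks at the listed genes, with the same window, TGACTCAGC was found in 6 of 10 control peaks (23.8% of the list) and 3 of 26 iAs peaks (15.6%), while windows of the same length placed 5 kb away held it in 0.187% and 0.245% of cases.

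Counted by gene, 8 of the 9 genes with an Nrf2 iAs peak had at least 1 peak with TGACTCAGC, and these are 8 of the 10 listed genes, against 12.3% of all genes. The exception was TFRC. The iAs peaks covered 14 copies in all, 4 of them at HMOX1, 3 at SLC48A1 and 2 in the ABCB6 window. A match is a description of the sequence and not evidence that the copy was bound. For HIF1α the core ACGTG or GCGTG was found in the central window of 15 of 29 iAs peaks at the listed genes, close to the 52.5% of the list, while windows 5 kb away held it in 25.3% of cases. In control cells it was found in 4 of 8 HIF1α windows, against 47.7%.

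Peaks of both factors met at 6 of the 10 genes after iAs (HMOX1, FTL, FTH1, FECH, ABCB6 and TFRC), where an Nrf2 iAs peak overlapped a HIF1α iAs peak, against 12.7% of all genes. Counted by peak, 8 of 26 Nrf2 iAs peaks (30.8%) overlapped a HIF1α iAs peak, against 14.7% of the list (13.9 to 15.5%). From the side of HIF1α, 9 of 29 iAs peaks (31.0%) overlapped an Nrf2 iAs peak, against 8.95% (8.47 to 9.46%). In control cells 2 of 10 Nrf2 peaks overlapped a HIF1α peak, the distal HMOX1 array and ABCB6, against 27.7% of the list (26.2 to 29.3%). The 8 Nrf2 iAs peaks that overlapped were 220 to 1714 bp wide, and a wider peak can overlap more by its width alone. With a reciprocal overlap of 50% in place of 1 bp, 1 of 26 Nrf2 peaks at the listed genes overlapped a HIF1α peak after iAs, against 6.66% of the list, and 1 of 10 did in control cells, against 19.9%. The count of 6 of 10 genes is not given under that rule.

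Merged across libraries, the 73 peaks made 48 regions. The HMOX1 array and the ABCB6 start region were the only 2 occupied in all 4 libraries, which is 4.17% of the 48 and compares with 1.59% of all 21088 regions. The FTL and FECH regions were occupied by Nrf2 in both conditions and by HIF1α after iAs alone, a pattern of 0.621% of all regions. Regions of a single iAs list were most frequent, with 13 of Nrf2 alone (27.1%, against 16.7% of all regions) and 18 of HIF1α alone (37.5%, against 43.6%).

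For 41 other genes of heme and iron metabolism the Nrf2 counts were closer to those of all genes. Nrf2 peaks were found in the window of 13 of 41 in control cells, against 20.0% of all genes, and 15 of 41 after iAs, against 35.0%. HIF1α peaks were found at 26 of 41 in control cells, against 45.5%, and 33 of 41 after iAs, against 68.6%. With the whole lists these counts were above the all-gene share, as they were for the listed genes. With the 3204 widest peaks of each list, the HIF1α counts at the listed genes were near the all-gene share. In that setting the other genes gave 20 of 41 in control cells, against 31.5%, and 15 of 41 after iAs, against 33.9%. An Nrf2 peak within 1 kb of the start site was found at 2 of 41 in either condition, at UROD, an enzyme of heme synthesis, and PCBP1, an iron chaperone, against 2.23% of all genes in control cells and 4.92% after iAs. HIF1α peaks within 1 kb were found at 12 of 41 in control cells, against 16.5%, and 24 of 41 after iAs, against 42.1%. None of the 41 had one of the 100 widest Nrf2 peaks of either list, and 4 of 41 had an Nrf2 iAs peak with TGACTCAGC, against 12.3% of all genes.

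By role, and beside the 35.0% of all genes, Nrf2 iAs peaks were found at 3 of 8 genes of heme synthesis, 2 of 7 of heme breakdown and transport, 4 of 11 of iron uptake and transport, 3 of 9 of iron storage and sensing and 2 of 5 of iron-sulphur assembly. CP, the ferroxidase ceruloplasmin, had Nrf2 peaks at -3.47 kb in control cells (384 bp) and at -3.50 kb after iAs (631 bp). ISCU, the scaffold on which iron-sulphur clusters are built, had a 715 bp Nrf2 control peak at -1.31 kb and a 621 bp iAs peak at -1.36 kb, both nearer to the start site of SART3, so that here the iAs peak was the narrower. BACH1, the repressor named above, had an Nrf2 iAs peak of 398 bp in its intron 1 and no control peak within 10 kb of its start site. HIF1α iAs peaks near start sites reached 1276 bp at PCBP1, 1047 bp at SLC25A37, the mitochondrial iron importer, 942 bp at UROS, an enzyme of heme synthesis, and 934 bp at ABCB10, a mitochondrial transporter.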

How the data were processed

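The data were positions of peaks from 4 ChIP-seq libraries, 1 for each antibody and condition, with groups taken from the sample labels. Per the labels and the published methods, the authors aligned reads with BWA to hg19 and called peaks per library. The submitters' processing notes name MACS2 2.1.0 and the published methods name MACS or SICER. Those methods describe down-sampling of tags within groups of samples, without saying which libraries formed a group. The deposited table holds start, end and name of each peak, which are other values than counts or signal, with no height or score. No peak list of an input library was used here, and the deposited merged regions were used only to check that the union of the 4 lists had the same number, 21088.

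Gene bodies, canonical start sites and exons came from GENCODE release 44 mapped to GRCh37, the build of the peaks, and sequence came from the GRCh37 genome. Peaks were assigned to a gene body with 50 kb on each side, and an overlap of 1 bp counted as shared. Positions are 1-based and distances run from the canonical start site to the peak centre, negative upstream. Each motif was looked for on either strand, in a window of 201 bp about the centre and in the whole peak. Counts were tested on simulated data, in which all 200 planted genes and 200 planted windows were found, and a recount with bedtools 2.31.1 gave the same numbers of peaks at the listed genes. Intervals are 95% Wilson intervals. Python 3.11.15, NumPy 2.4.6 and SciPy 1.17.1 were used.

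The 10 genes and the list of 41 others were chosen with earlier results of these data known. The counts within 1 kb, among the 100 widest peaks, of TGACTCAGC by gene or by class of peak, and of TACGTGCC were added after values were seen. Named were all 10 genes, neighbours with the nearest start site, at most 5 of the other genes per role and factor with the widest peak within 10 kb of their start site, and the 3 genes most like HMOX1. MCM5, TUBA4B and similar neighbours are named under that rule.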

Additional observations from a re-analysis of the deposited data

How the results depend on the processing

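Each of 42 values was recomputed under the alternatives, which gave 120 values, 59 of them within 1.5 times the reported one and 61 further away, 52 of those lower. The cause was not tested beyond the smaller windows and shorter lists that the alternatives themselves impose. With the gene body alone, genes with a peak were 3 (Nrf2 control) and 3 (HIF1α control) of 10, 7, 7 and 16 of the 41 others (Nrf2 control, Nrf2 iAs, HIF1α control) and 1531, 2914, 4022 and 9020 of all genes, and peaks at the 10 genes were 4, 10, 4 and 10 in the order Nrf2 control, Nrf2 iAs, HIF1α control, HIF1α iAs. With 10 kb around the gene, 2142, 3950 and 5842 of all genes had a peak (Nrf2 control, Nrf2 iAs, HIF1α control). In that setting 16 HIF1α iAs peaks lay at the 10 genes. There, iAs peaks without a control peak were 11 of 19 (Nrf2) and 12 of 16 (HIF1α), against 62.0% and 75.2% of the lists. Counting a peak only for the nearest start site gave 7, 8 and 15 of the 41 others (Nrf2 control, Nrf2 iAs, HIF1α control), 1812, 3459, 4199 and 8654 of all genes in the 4 libraries, and 5 (HIF1α control) and 12 (HIF1α iAs) peaks at the 10 genes. The wider part of each list, above its median width, left HIF1α control peaks at 2 of 10 genes, Nrf2 control peaks at 8 of the 41 others, 2455, 4648 and 6041 of all genes (Nrf2 control, Nrf2 iAs, HIF1α control), and 6, 14, 2 and 16 peaks at the 10 genes. With the 3204 widest peaks of each list, HIF1α peaks lay at 3 (control) and 4 (iAs) of 10 genes, against 10 of 10 after iAs with the whole list. The same setting gave 15 of the 41 others (HIF1α iAs), 4113 (Nrf2 iAs) and 6832 (HIF1α iAs) of all genes, 14, 4 and 8 peaks at the 10 genes (Nrf2 iAs, HIF1α control, HIF1α iAs), and 5 (Nrf2) and 6 (HIF1α) iAs peaks without a control peak.

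A reciprocal overlap of 50% left 7 of 10 Nrf2 and 4 of 8 HIF1α control peaks at the 10 genes without an iAs peak. Of those HIF1α peaks, 2 had none under the 1 bp rule either. An iAs peak more than 2 times as wide as the control peak cannot meet the 50% rule. The 7 Nrf2 control peaks had ratios of iAs to control width from 2.07 to 8.81, and each overlapped an iAs peak under the 1 bp rule. The share of all control peaks without an iAs peak under the 50% rule is not given here, so these counts have no comparison. The same rule left 1 Nrf2 peak overlapping HIF1α in control cells and 1 after iAs. A gap of up to 1 kb left 10 of 26 Nrf2 iAs peaks without a control peak, against 56.6% of the list. It left 1 of 8 HIF1α control peaks without an iAs peak, for which no share of the list is given here. Centres within 200 bp of a HIF1α iAs peak centre were found for 5 of 26 Nrf2 iAs peaks, for which no share of the list is given here. Over whole peaks, ACGTG or GCGTG was in 7 of 10 Nrf2 control peaks at the 10 genes, against 37.0% of the list. It was in 18 of 26 Nrf2 iAs peaks, against 42.4%. TGACTCAGC was in 10 of 26 Nrf2 iAs and 2 of 8 HIF1α control peaks, against 21.7% and 2.56%. TGACNNNGC was in 11 of 26 Nrf2 iAs peaks, against 44.2%. TGACTCA or TGAGTCA was in 12 of 26 Nrf2 iAs and 2 of 8 HIF1α control peaks, against 51.5% and 18.0%. No paired analysis was possible because each group has 1 library. Without heights, read totals or replicates, a peak in the iAs list alone cannot be told apart from one just under the calling threshold in control cells.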

Other observations

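The 3 protein-coding genes whose peak-covered lengths in the 4 libraries were most like those of HMOX1 were GADD45A, a stress-induced growth arrest gene, RXRA, a nuclear receptor, and CCND3, a D-type cyclin. Likeness was the Euclidean distance between log2 covered bases over the 4 libraries, and it came to 0.54, 0.62 and 0.74. HMOX1 had 1161 covered bp for Nrf2 in control cells, 4682 for Nrf2 after iAs, 223 for HIF1α in control cells and 1201 for HIF1α after iAs. The corresponding lengths were 1095, 3590, 275 and 1407 bp at GADD45A, 1235, 4322, 223 and 1822 bp at RXRA, and 1240, 3860, 218 and 1927 bp at CCND3. These are the values of 1 library per group.

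HIF1α peaks at the listed genes also held the Nrf2 element in a few cases. TGACTCAGC lay in 2 of 29 HIF1α iAs peaks, the distal HMOX1 array and the upstream FTL peak, against 0.834% of that list, and in 2 of 8 HIF1α control peaks, the HMOX1 array and the ABCB6 peak at 0.87 kb, against 2.56% of that list. All 4 of these peaks overlapped an Nrf2 peak of the same condition.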
